A study of Mus musculus with 6 samples.

Results

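The adenosine and NAD ectoenzyme axis was followed through 8 genes of the deposited table, taken by symbol: Entpd1, Nt5e, Adora2a, Adora2b, Ada, Adk, Cd38 and Slc29a1. All 8 symbols were found among the 55414 genes of the table, and all 8 were among the 15527 genes that passed the filter on low counts. The libraries are RNA sequencing of liver natural killer (NK) cells from wild-type (WT) mice, sampled on day 3. They form 2 groups of 3: a control group given phosphate-buffered saline (PBS) and a group given metformin, a glucose-lowering drug, at 200 mg/kg for 3 days. No other allele or agent is named for either group, and the age and sex of the mice, the gate used to isolate the cells and any pooling of animals are not given in the sources used here. This comparison shows how transcript levels in these cells differed with metformin. Whether each library stands for its own mouse is likewise not stated there, so p-values describe the spread between these libraries, which may be technical.

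Extracellular ATP, released by stressed or dying cells, is broken down on the cell surface in steps. CD39, the product of Entpd1, removes phosphates from ATP and ADP to give AMP, and CD73, the product of Nt5e, turns AMP into adenosine. Adenosine binds the A2 receptors, encoded by Adora2a and Adora2b, which raise cyclic AMP and restrain killing and cytokine release by NK cells. It is taken up by the equilibrative transporter ENT1 (Slc29a1) and cleared inside the cell by adenosine deaminase (Ada), which gives inosine, or by adenosine kinase (Adk), which gives AMP. CD38 (Cd38) consumes NAD on the cell surface, and its products can also feed the formation of adenosine.

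The libraries held 22152167 to 30161214 estimated reads, and the 3 metformin libraries, at 22152167 to 24266803, were all shallower than the PBS libraries. Of the NK cell markers, 13 of 13 were tested, and their summed level was 21294 to 24638 CPM (normalised counts, on TMM-scaled library sizes). Metformin 3 stood apart in its traces of hepatocytes and of Kupffer cells and macrophages. Its liver endothelial cell markers, by contrast, summed to 119 CPM, the lowest of all libraries. The sum of 12 hepatocyte markers was 330.4 CPM there, against 77.2 to 168 CPM in the other 5 libraries, and that of 10 Kupffer cell and macrophage markers was 124 CPM, against 22.8 to 46.2 CPM. Its sum of 12 conventional NK cell markers was 2906 CPM, against 3668 and 3625 CPM in metformin 1 and 2. Single genes departed there in both directions. Xdh (gene length 7775 bases) was at 177 CPM, against 330 and 339 CPM in metformin 1 and 2. Ada (1688 bases) was at 34.4 CPM, against 28.4 and 27.0 CPM. The part of gene length in this was not tested. Reads came from PCR without molecular identifiers, so copies cannot be told from separate molecules.

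Ordered by level per length (TPM, which corrects for transcript length, averaged over the 6 libraries), Adora2a came first and Adora2b last. Adora2a averaged 112 TPM, Entpd1 91.9 TPM, Cd38 72.7 TPM, Slc29a1 48.5 TPM, Ada 23.8 TPM, Adk 16.6 TPM, Nt5e 11.6 TPM and Adora2b 0.831 TPM. Adora2a lay above 87.5% and Entpd1 above 84.6% of the 12921 protein-coding genes tested, while Nt5e lay above 40.1% and Adora2b above 10.2%. The same order held within the PBS group and within the metformin group. Each pair of neighbours was compared within libraries with a two-sided exact sign-flip permutation test over 6 libraries, where 0.031 is the smallest p, adjusted over 7 pairs. Entpd1 and Cd38, Cd38 and Slc29a1, Slc29a1 and Ada, Ada and Adk, and Nt5e and Adora2b differed in the same direction in 6 of 6 libraries (exact p = 0.031, adjusted p = 0.044 each). Adk was above Nt5e in 5 of 6 libraries (exact p = 0.063, adjusted p = 0.073), and the pair changed places when CPM were divided by the gene length that the table gives. Adora2a and Entpd1 could not be told apart over all libraries (exact p = 0.125, adjusted p = 0.125). In TPM, Adora2a divided by Entpd1 gave 1.65, 1.31 and 1.54 for PBS 1, 2 and 3, and 1.04, 0.982 and 0.997 for metformin 1, 2 and 3. The ratios of the PBS libraries were thus all above those of the metformin libraries.

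**Figure D1:**
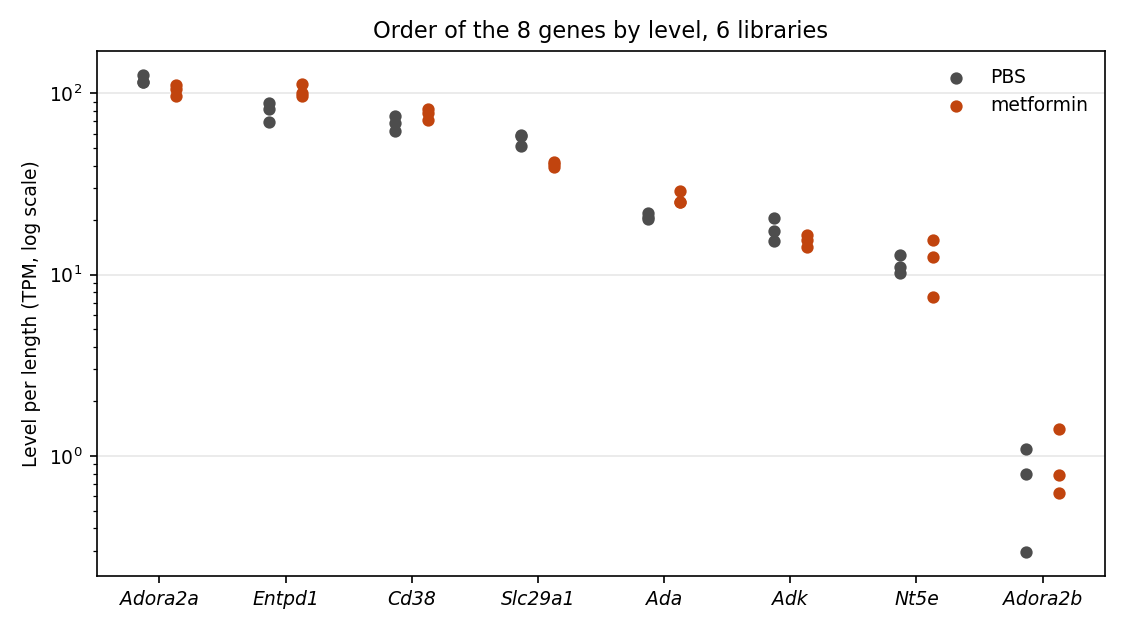
Level per length (TPM, log axis) of the 8 genes in each of the 6 libraries, PBS in grey and metformin in orange, ordered by the mean over all libraries. The levels run from 112 TPM for Adora2a to 0.831 TPM for Adora2b, and Adora2a and Entpd1 lie closer to each other in the metformin libraries than in the PBS libraries.

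With metformin, Entpd1, Ada and Cd38 were higher and Slc29a1 was lower, each by less than 1.5 fold, while Nt5e, Adk and Adora2b overlapped between the groups. None of the 8 differences passed a threshold of 0.05 after adjustment over all genes, where edgeR's quasi-likelihood test called 0 genes (0%). At an unadjusted p under 0.05, edgeR gave 4 of the 8 genes, against 10.4% of all genes tested: 3 were higher, against 5.29%, and 1 was lower, against 5.08%. Groups did not overlap in CPM in 3 genes with metformin above (9.49% of all genes tested) and in 2 with metformin below (9.63%). The median log2 fold change of the 8 genes was 0.21, and that of all genes tested was 0.01. DESeq2, which called 299 genes (1.93%), 0.947% of all genes tested being called as higher, called Entpd1 and none of the other 7. Limma-voom called 0 genes (0%), and 36 genes (0.232%) with sample quality weights, none of them among the 8. At an unadjusted p under 0.05 there were 1610 genes by edgeR, 1748 by DESeq2 and 1679 by limma-voom. The shares over all genes are the background for these counts, since the genes were picked with earlier results of these data known.

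**Figure D2:**
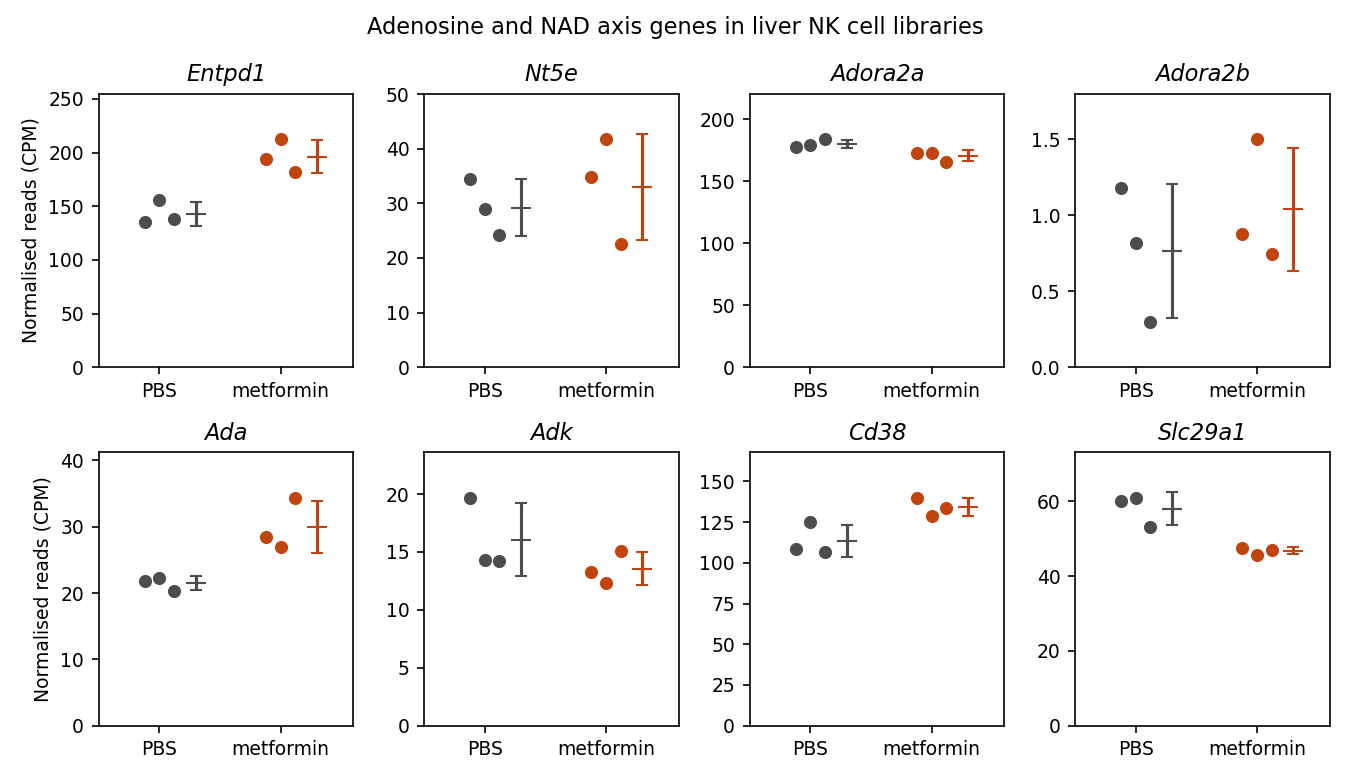
Normalised reads (CPM) of each gene in the 3 PBS libraries (grey) and the 3 metformin libraries (orange), in the order 1, 2, 3 from left to right, with the mean and SD (n = 3) beside them. The groups lie apart in Entpd1, Ada, Cd38, Slc29a1 and Adora2a and overlap in Nt5e, Adora2b and Adk.

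**Figure D3:**
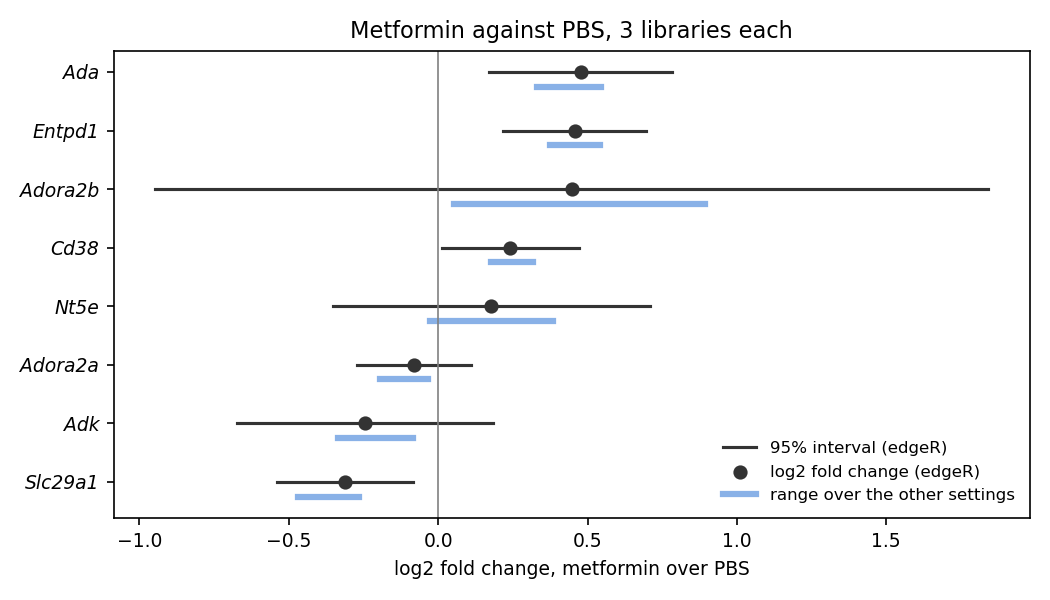
Log2 fold change of metformin over PBS for each gene (points) with the 95% interval of edgeR's fit (lines), and the range of the estimate over the other settings tried (blue bars). The intervals of Entpd1, Ada, Cd38 and Slc29a1 do not cross 0, and that of Adora2b runs from -0.95 to 1.84.

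Entpd1 (ENSMUSG00000048120.17, plus strand of chromosome 19, 40600810 to 40730046 in the table) had the smallest p of the 8 genes, so the 2 start-site windows that RefSeq gives for it are shown (GRCm38.p6, plus strand, 5′ to 3′). Each holds 300 bases, most of them before an annotated start. Cyclic AMP acts on transcription through the response element TGACGTCA, and its core letters TGACG, read on either strand, are in capitals. They appear on the printed strand as CGTCA, from base 116 of the first window and from base 68 of the second, counted from 1 at the 5′ end.
Entpd1, chr19:40612116-40612415: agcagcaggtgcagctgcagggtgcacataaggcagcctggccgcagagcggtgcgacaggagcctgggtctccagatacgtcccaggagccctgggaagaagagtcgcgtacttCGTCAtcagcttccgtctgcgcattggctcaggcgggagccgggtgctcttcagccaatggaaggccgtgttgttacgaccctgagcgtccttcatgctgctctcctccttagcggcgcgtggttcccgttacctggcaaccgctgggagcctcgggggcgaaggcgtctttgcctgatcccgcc
Entpd1, chr19:40659520-40659819: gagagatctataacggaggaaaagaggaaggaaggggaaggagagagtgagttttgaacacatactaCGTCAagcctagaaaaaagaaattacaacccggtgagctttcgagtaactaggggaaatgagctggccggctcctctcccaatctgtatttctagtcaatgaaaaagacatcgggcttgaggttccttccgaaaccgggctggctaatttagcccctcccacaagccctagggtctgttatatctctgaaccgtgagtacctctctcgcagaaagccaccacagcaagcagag
The core letters were in both Entpd1 windows, in 1 of 2 windows of Adk and in 1 of 8 of Slc29a1, and in none of the windows of Ada, Cd38, Nt5e and Adora2b. Of all 32851 windows in the RefSeq table, 20.8% hold the core letters on either strand. The whole element, which contains them, is in 1.79% of all windows and in 0 of the 16 windows matched to 7 of the 8 genes. A match of letters is a description of the sequence, and which start these cells use was not tested. The windows are on another build than the coordinates of the table.

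CD39 transcripts were higher in every metformin library than in every PBS library. Entpd1 stood at 135 CPM, 156 CPM and 138 CPM in PBS 1, 2 and 3, and at 194 CPM, 213 CPM and 182 CPM in metformin 1, 2 and 3. The PBS mean was 143 ± 11.2 CPM and the metformin mean 196 ± 15.4 CPM (SD, n = 3 each). The log2 fold change was 0.46 (SE 0.10, 95% interval 0.22 to 0.70), a fold of 1.37, with an unadjusted p = 0.0023 and an adjusted p = 0.272 in edgeR's quasi-likelihood test. DESeq2 gave an adjusted p = 0.012, and over all 18 other settings the adjusted p lay between 0.012 and 0.576 and the log2 fold change between 0.37 and 0.54. The value was as large without metformin 3 (0.50). Gm8783, a processed pseudogene inside the Entpd1 locus on the same strand, held 57.5 to 111 reads per library, against 3674 to 5095 reads for Entpd1.

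Several sums of cell type markers also differed between the groups. CD39 is also made by regulatory T cells, B cells and macrophages, and in bulk libraries more cells of a type and more RNA per cell cannot be told apart. The sum of 13 markers of type 1 innate lymphoid cells (ILC1), the resident relatives of NK cells in the liver, was 1633 to 1867 CPM in the PBS libraries and 2444 to 2703 CPM in the metformin libraries (exact permutation, two-sided, p = 0.1, and no smaller p is possible with 3 libraries a group). Cxcr6 (mean 514 CPM) and Cxcr3 (mean 416 CPM) were the most abundant. Il18r1 lay lower in every metformin library (48.1 to 52.6 CPM, against 63.7 to 72.5 CPM), and the others of that list lay higher. Over all genes tested, 9.49% lay higher in every metformin library and 9.63% lower. The sum of 12 conventional NK cell markers was 4846 to 4857 CPM in the PBS libraries and 2906 to 3668 CPM in the metformin libraries (exact permutation p = 0.1). For 10 T cell markers it was 419 to 510.0 CPM and 619 to 743 CPM (exact permutation p = 0.1). Most of it came from Trbc1 (mean 352 CPM), a T cell receptor constant gene, followed by Cd28 (mean 48.1 CPM). Trbc1 was at 289 to 297 CPM in the PBS libraries, while Trac, another such constant gene, was at 8.43 to 32.8 CPM there. Metformin 3 held the highest Trbc1 (479 CPM) and the lowest Trac (21.4 CPM) of its group. The sum was highest in metformin 1 (743 CPM), which held the highest Trac (74.1 CPM), so it did not follow Trbc1 alone. Within that list Cd3e, a chain of the T cell receptor complex, was at 6.92 to 21.3 CPM in the PBS libraries and 24.3 to 62.2 CPM in the metformin libraries, while Cd8b1 was at 0.479 to 10.3 CPM and 2.63 to 16.2 CPM. Of the 10 genes, 3 lay higher in every metformin library (Cd3e, Cd3d and Trbc1, against 9.49% of all genes tested) and 6 overlapped. Lef1, a transcription factor that NK cells can also express, lay lower in every metformin library (35.6 to 45.3 CPM, against 48.2 to 56.0 CPM in the PBS libraries). Of all genes tested, 9.63% lay lower in every metformin library.

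Of 6 regulatory T cell markers the sum was 169 to 189 CPM in the PBS libraries and 199 to 235 CPM in the metformin libraries (exact permutation p = 0.1), nearly all from Tnfrsf18, which NK cells can also express (mean 170 CPM), with Il2ra next (8.37 to 17.5 CPM over the 6 libraries). Foxp3, the factor that defines regulatory T cells, was at 0.0821 to 0.918 CPM in the 6 libraries. Sums of 9 B cell markers overlapped (25.3 to 169 CPM in the PBS libraries, 73.0 to 234 CPM in the others), with Cd79a and Cd79b the most abundant (mean 32.2 CPM each). Sums of 10 Kupffer cell and macrophage markers overlapped too, at 22.8 to 46.2 CPM in the PBS libraries and 43.4 to 124 CPM in the others. Within that list 3 of 10 genes lay higher in every metformin library, against 9.49% of all genes tested. Adgre1, which encodes the macrophage antigen F4/80, was at 2.50 to 7.02 CPM and 11.1 to 14.7 CPM, and C1qa, a complement gene, at 0.295 to 1.25 CPM and 3.05 to 9.20 CPM. Marco, a scavenger receptor, was at 0 to 0.923 CPM and 1.09 to 10.6 CPM. The most abundant gene of the list, Cd68, overlapped (15.5 to 21.6 CPM and 11.95 to 21.7 CPM), and Clec4f, a Kupffer cell lectin, was at 0 to 0.570 CPM over all libraries. Sums of 5 plasma cell markers overlapped as well, at 260 to 681 CPM in the PBS libraries and 461 to 1116 CPM in the others. The part of these cells in the Entpd1 difference was not tested.

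**Figure D4:**
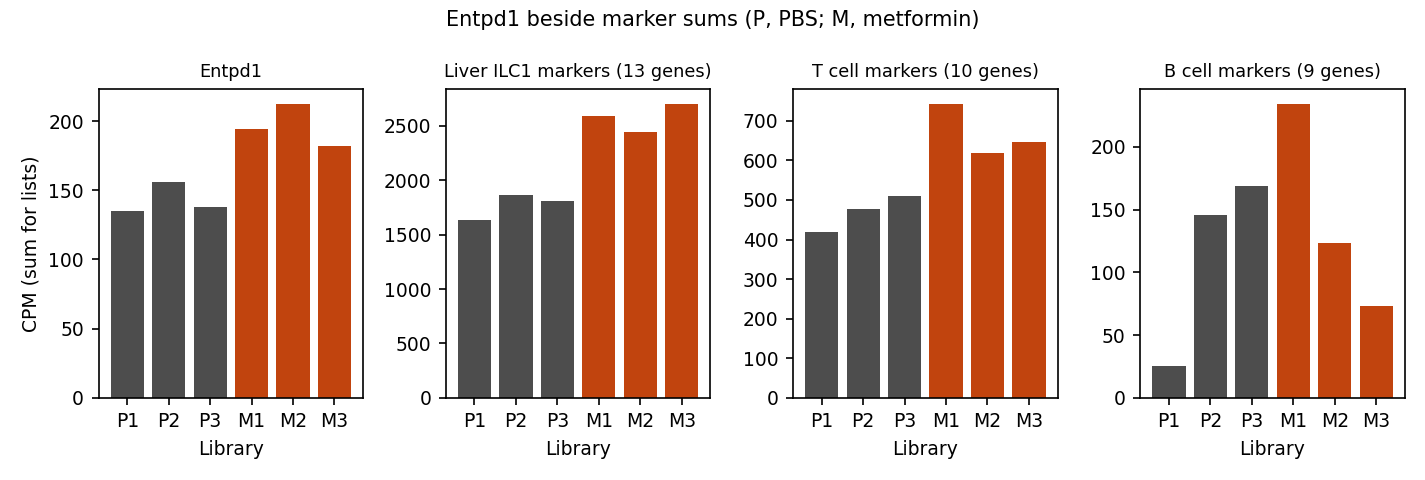
Bars give, per library, the CPM of Entpd1 and the summed CPM of liver ILC1, T cell and B cell markers (P, PBS in grey; M, metformin in orange). Entpd1, ILC1 and T cell bars are higher in all 3 metformin libraries, and the B cell bars overlap, from 25.3 CPM in P1 to 234 CPM in M1.

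CD73, the enzyme after CD39, showed no separation of the groups. Nt5e (chromosome 9, 88209250 to 88254145) stood at 34.5 CPM, 29.0 CPM and 24.2 CPM in PBS 1, 2 and 3, and at 34.8 CPM, 41.8 CPM and 22.6 CPM in metformin 1, 2 and 3. Metformin held both its highest and its lowest library. The log2 fold change was 0.18 (SE 0.23, 95% interval -0.35 to 0.71; edgeR adjusted p = 0.797). Its sign turned without metformin 2 (-0.027). The value was 0.054 without PBS 3, 0.30 without PBS 1 and 0.38 without metformin 3, so that no direction could be given. On log2(TPM + 0.1) it was 0.0025, where the median of all genes was at -0.10. CD39 transcripts outnumbered CD73 transcripts in every library. In TPM, Entpd1 divided by Nt5e gave 5.41, 8.001 and 8.001 for PBS 1, 2 and 3, and 8.04, 7.23 and 12.9 for metformin 1, 2 and 3, and the groups overlapped.

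Of the A2 receptors, Adora2a was abundant and close between the groups. Adora2a (chromosome 10, 75152711 to 75170618) stood at 178 CPM, 179.6 CPM and 184 CPM in PBS 1, 2 and 3, and at 173 CPM, 173 CPM and 166 CPM in metformin 1, 2 and 3. All metformin values were below all PBS values, by a small margin. The log2 fold change was -0.08 (SE 0.08, edgeR adjusted p = 0.743), and its 95% interval of -0.27 to 0.11 leaves room for a fold from 0.828 to 1.08. On log2(TPM + 0.1) the difference was -0.19, where the median of all genes was at -0.10. The coefficient of variation was 1.84% within PBS and 2.59% within metformin, the smallest of the 8 genes within PBS and, after Slc29a1, the next smallest within metformin.

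The other A2 receptor was near the limit of detection. Adora2b (chromosome 11, 62139810 to 62157279) had 32, 20 and 9 reads in PBS 1, 2 and 3 and 20, 36 and 17 reads in metformin 1, 2 and 3. At these counts a difference, estimated at 0.45 on the log2 scale (SE 0.61, 95% interval -0.95 to 1.84; edgeR adjusted p = 0.806), was not detectable. Without PBS 3 it was 0.054, without metformin 2 it was 0.084 and without PBS 1 it was 0.89. Adora2a exceeded Adora2b by 78.4 to 415 times in TPM. The other adenosine receptors were lower still. Adora1 had a mean of 0.394 CPM with PBS and was at 0 CPM in all 3 metformin libraries, under the filter, and Adora3 had group means of 0.520 CPM and 0.287 CPM, a log2 difference of -0.84 (SE 0.79; edgeR adjusted p = 0.719). Without metformin 1 that difference was -0.35, and without metformin 3 it was -1.43.

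Of the 2 enzymes that clear adenosine, the deaminase was higher with metformin and the kinase was not distinguishable. Ada (chromosome 2, minus strand, 163568504 to 163592159) stood at 21.8 CPM, 22.3 CPM and 20.4 CPM in PBS 1, 2 and 3, and at 28.4 CPM, 27.0 CPM and 34.4 CPM in metformin 1, 2 and 3. The groups did not overlap, and metformin 3 was the highest. The means were 21.5 ± 1.01 CPM and 29.9 ± 3.93 CPM (SD, n = 3 each), with a log2 fold change of 0.48 (SE 0.13, 95% interval 0.17 to 0.78; edgeR unadjusted p = 0.0070, adjusted p = 0.323). Without metformin 3 it was 0.36, and with the trend on gene length removed it was 0.37 (edgeR adjusted p = 0.301). Its adjusted p ran from 0.098, by DESeq2, to 0.717 over the other settings. The ILC1, conventional NK and T cell sums given above separate the same libraries, and their part in the Ada difference was not tested.

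Adk (chromosome 14, 21102642 to 21498637) stood at 19.7 CPM, 14.3 CPM and 14.2 CPM in PBS 1, 2 and 3, and at 13.3 CPM, 12.3 CPM and 15.1 CPM in metformin 1, 2 and 3. PBS 1 lay above the rest, and the other 5 libraries overlapped. The log2 fold change was -0.25 (SE 0.19, 95% interval -0.67 to 0.18; edgeR adjusted p = 0.658), and -0.084 without PBS 1. In TPM, Ada divided by Adk gave 1.02, 1.43 and 1.16 for PBS 1, 2 and 3, and 1.63, 1.79 and 1.75 for metformin 1, 2 and 3. Every metformin ratio was thus above every PBS ratio. The difference of the mean log2 ratios was 0.53, with an SD of 0.24 within PBS and 0.07 within metformin, and no test was made of it.

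Transcripts of the adenosine transporter ENT1 were lower with metformin, with little spread in that group. Slc29a1 (chromosome 17, minus strand, 45896126 to 45910532) stood at 60.2 CPM, 61.0 CPM and 53.1 CPM in PBS 1, 2 and 3, and at 47.5 CPM, 45.8 CPM and 47.0 CPM in metformin 1, 2 and 3. The groups did not overlap. The means were 58.1 ± 4.35 CPM and 46.8 ± 0.905 CPM (SD, n = 3 each), and the log2 fold change was -0.31 (SE 0.10, 95% interval -0.54 to -0.09; edgeR unadjusted p = 0.013, adjusted p = 0.378). It was -0.47 on log2(TPM + 0.1), a scale on which the median of all genes was at -0.10. Over the 18 other settings the sign held and the adjusted p was 0.164 to 0.771. Here too the part of the cell type markers that separate the groups was not tested. Slc28a2, a concentrative nucleoside carrier named here for its level, was more abundant per length than Slc29a1, at a mean of 95.6 TPM against 48.5 TPM. Its log2 fold change was -0.01 (SE 0.11, 95% interval -0.28 to 0.25; edgeR adjusted p = 0.978).

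On the NAD side, CD38 transcripts were somewhat higher with metformin. Cd38 (chromosome 5, 44025895 to 44069717) stood at 108 CPM, 125 CPM and 107 CPM in PBS 1, 2 and 3, and at 140.1 CPM, 129 CPM and 134 CPM in metformin 1, 2 and 3. The groups lay apart in CPM, with PBS 2 close to metformin 2, but overlapped in TPM, where metformin 3 (71.3 TPM) was under PBS 2 (74.9 TPM). The log2 fold change was 0.24 (SE 0.10, 95% interval 0.01 to 0.47; edgeR unadjusted p = 0.042, adjusted p = 0.471), and its unadjusted p was under 0.05 in 11 of 18 other settings. The ILC1, conventional NK and T cell sums separate the same libraries, plasma and B cells also make CD38, and the part of these cells in the Cd38 difference was not tested. Bst1, which encodes the related ectoenzyme CD157, lies next to Cd38, with 24566 bases between them in the table. Bst1 had 9 to 37 reads per library against 2945 to 3245 for Cd38, and its log2 fold change, 0.38 with an SE of 0.64 (edgeR adjusted p = 0.852), turned to -0.31 without metformin 3.

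Art2b, an ADP-ribosyltransferase of the lymphocyte surface that uses NAD to modify other surface proteins, had the smallest p of the related genes. It stood at 40.9 CPM, 56.4 CPM and 54.0 CPM in PBS 1, 2 and 3, and at 94.0 CPM, 89.4 CPM and 79.9 CPM in metformin 1, 2 and 3. The groups lay well apart, with a log2 fold change of 0.80 (SE 0.14, 95% interval 0.47 to 1.12; edgeR unadjusted p = 4.6e-04, adjusted p = 0.196). DESeq2 (adjusted p = 3.2e-04) and limma-voom with sample quality weights (adjusted p = 0.048) called it, and its adjusted p reached 0.576 over the other settings. Art2a is a close copy of Art2b with a mean of 0.952 CPM and 1.73 CPM in the groups, and with the handling of shared reads not given in the sources used here, both values remain uncertain. T cells also express Art2b. The ILC1, conventional NK and T cell sums given above separate the same libraries, and the part of these cells in the Art2b difference was not tested.

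P2rx7, the ATP-gated channel that Art2b modifies in mouse T cells, stood at 49.2 CPM, 46.9 CPM and 50.1 CPM in PBS 1, 2 and 3, and at 82.6 CPM, 74.8 CPM and 49.1 CPM in metformin 1, 2 and 3. Metformin 3 lay within the PBS range and the other metformin libraries above it. The log2 fold change was 0.50 (SE 0.18, edgeR unadjusted p = 0.025, adjusted p = 0.436), and 0.68 without metformin 3 (adjusted p = 0.063, the smallest over the other settings, with 0.784 the largest).

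The wider pathway was described by 9 lists of related genes, in which edgeR called 0 genes over all genes tested. In the list headed other ectonucleotidases, 11 genes were tested. Of these, 0 were higher (5.29% of all genes tested) and 3 lower (5.08%) at an unadjusted p under 0.05 (median log2 fold change -0.14, against 0.01 for all genes). They were Enpp1, which splits ATP to AMP and pyrophosphate (59.7 to 48.2 CPM, -0.31), Entpd4, an intracellular relative of CD39 (47.3 to 38.1 CPM, -0.31), and Pald1 (58.9 to 38.6 CPM, -0.61), each printed as PBS mean, metformin mean and log2 fold change. Pald1 is a phosphatase-like gene placed in the list without an established role as an ectonucleotidase, and DESeq2 called it (adjusted p = 0.043, with 0.043 to 0.684 over the other settings). Nudt2, also in the list, has no such established role either. The count and the median are therefore not those of surface enzymes alone. Entpd4 has a near-identical copy, Entpd4b (61.5 to 53.4 CPM, -0.20), so the reads of both are uncertain. Among 8 intracellular nucleotidases tested, 1 was lower (5.08% of all genes tested), Nt5c2, which cleaves IMP and GMP (55.2 to 40.9 CPM, log2 fold change -0.43, SE 0.13; edgeR adjusted p = 0.366). Nt5dc2 overlapped between the groups (log2 fold change -0.87, SE 0.44), and without PBS 1 the value was -0.25.

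The arm that carries the A2 receptor signal gave 0 of 25 genes tested at an unadjusted p under 0.05 (10.4% of all genes tested), with a median of -0.01. Its members ranged from 0.253 CPM for Prkar1b, which was under the filter, and 0.677 CPM for Adcy4, an adenylyl cyclase, to 884 CPM for Prkar1a (means over 6 libraries). Gnas, the stimulatory G protein, had means of 530.5 CPM (PBS) and 525 CPM (metformin). Adcy7, the adenylyl cyclase of leukocytes, had means of 479 and 525 CPM, and Prkar1a, a regulatory subunit of protein kinase A, of 865 and 903 CPM. Gnas, Adcy7, Adcy4 and the 2 Prkar genes were named for their level, after their values were seen. By the rule, Adcy9 (1.52 to 0.728 CPM, log2 fold change -1.06, SE 0.48) and Pde4a, which degrades cyclic AMP (43.8 to 52.0 CPM, 0.25, SE 0.12), came closest, with edgeR adjusted p = 0.487 and 0.501. Without PBS 1, Pde4a was at 0.14.

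Of 19 purine salvage genes tested, 0 were higher (5.29% of all genes tested) and 2 lower (5.08%) at an unadjusted p under 0.05 (median -0.02). Group means (PBS, then metformin) were 3.12 and 1.33 CPM for Ampd3, an AMP deaminase (log2 fold change -1.23, SE 0.39), and 197 and 168 CPM for Ak3, a mitochondrial adenylate kinase (-0.23, SE 0.09). The 5 other nucleoside transporters tested gave 0 such genes (10.4% of all genes tested). These transporters included Slc29a3 (-0.22, SE 0.18) and Slc29a4 (0.42, SE 0.43). Single libraries decide both values: Slc29a3 was at -0.038 without metformin 3 and -0.34 without metformin 2, and Slc29a4 at 0.083 without metformin 1 and 0.26 without PBS 1. NAD synthesis gave 0 of 13 (10.4% of all genes tested), with a median of -0.08. Nampt, the rate-limiting enzyme of NAD salvage, was at 43.4 and 35.4 CPM (-0.29, SE 0.14, and -0.17 without PBS 2), and Nadk2, a mitochondrial NAD kinase, 30.9 and 25.7 CPM (-0.26, SE 0.12).

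Among 15 NAD ectoenzymes and NAD consumers tested, 1 gene, Art2b, was higher (5.29% of all genes tested) and 0 lower (5.08%) at an unadjusted p under 0.05 (median 0.09). Sirt6, an NAD-dependent deacetylase, was at 15.3 and 19.2 CPM (0.33, SE 0.15). Of 14 ATP receptors and channels, 1 was higher (5.29% of all genes tested), P2rx7, and 0 lower (5.08%), with a median of -0.11. P2ry14, a receptor of UDP-glucose, was at 11.3 and 7.94 CPM (-0.51, SE 0.23).

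**Figure D5:**
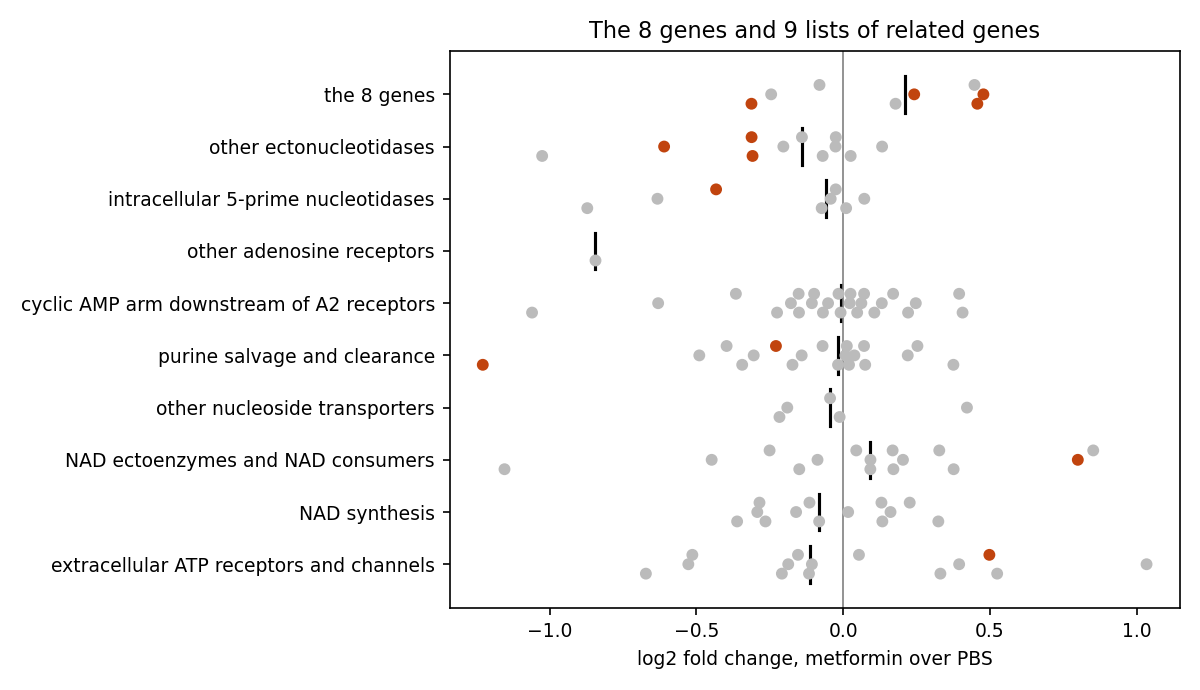
Each point is a gene that passed the filter, at its log2 fold change of metformin over PBS, in the 8 genes and 9 lists of related genes. Orange points have an unadjusted p under 0.05 in edgeR's test and black bars are medians, from 0.21 for the 8 genes to -0.84 for the single receptor gene tested.

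To place each gene among the rest, the 3 protein-coding genes with the most similar pattern were found by the root mean square difference of centred log2 CPM over 6 libraries. Entpd1 was closest to Maf (0.059), Stau2 (0.061) and Tnfsf10 (0.064), while its own spread was 0.246 on the same measure. Tnfsf10 is also among the 13 ILC1 markers summed above. Ada was closest to Wdr89 (0.019), Polr2l (0.029) and Krtcap2 (0.037), with an own spread of 0.261. Slc29a1 was closest to Cpne3 (0.036), Tusc3 (0.037) and Macir (0.040), with an own spread of 0.168, and Cd38 to Isyna1 (0.041), Tcta (0.047) and Prr5 (0.047), with 0.146. Adk was closest to Cenpl (0.061), Hmgb2 (0.072) and H2ax (0.075), with 0.212, Nt5e to Gm43302 (0.066), Tram2 (0.067) and Zfp41 (0.108), with 0.311, and Adora2a to Wasf2, Daxx and Rac3 (0.024 to 0.025), with 0.048. For Adora2b the closest genes, Alcam, Fgd5 and Gpr55, differed by 0.383 to 0.423, with an own spread of 0.708. The search covered 9869 genes, and closeness over 6 libraries is a description with no test.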

How the data were processed

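Liver NK cells were profiled in 6 libraries, made with SMART-seq mRNA chemistry per the labels' protocols. The submitters' processing notes list DRAGEN, GRCm39 and mm10 without saying what each was used for. In the 1 table that the authors deposited are estimated counts per gene, not normalized, and TPM values, scaled by the authors to 1 total per library. Only 2.97% of its genes have the same position in GENCODE M21 (GRCm38), so coordinates are printed as the table gives them. Strand use was not given in the sources used here. Estimated counts were rounded and fitted with edgeR 4.0.16 in R 4.3.3 (quasi-likelihood test, TMM, filterByExpr, 15527 genes, p-values adjusted by Benjamini and Hochberg over all genes). DESeq2 1.42.0, limma 3.58.1, other normalizations and filters, TPM, a gene length trend (lowess, span 0.3), a replicate block and each library left out were alternatives. SE is the log2 fold change over the square root of the F statistic. The genes and lists were chosen with earlier results of these data known. Named genes were the 8 genes, the 2 genes of smallest p per list, the 3 most similar genes (at least 5 CPM), the 2 most abundant of a marker list, and Bst1; others were named after their values were seen. Ratios used TPM + 0.01.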

Additional observations from a re-analysis of the deposited data

How the results depend on the processing

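Of the 8 genes, 7 kept their direction in all settings in which they were tested. Nt5e alone turned, to -0.027, without metformin 2, and ranged from -0.027 to 0.38 with 1 library left out. By DESeq2 Entpd1 passed the threshold (log2 fold change 0.45, adjusted p = 0.012), and no other of the 8 genes passed under any setting tried. Adora2b was not tested with a filter of 5 CPM in 3 libraries or on TPM, and DESeq2 gave it no adjusted p. The count of genes called, 0 in the edgeR fit, was 299 by DESeq2, 36 by limma-voom with sample quality weights, and 1 each without a filter, with the gene length trend removed and without metformin 3. Leaving out 1 library gave 0 to 1. With the replicate number as a block it was 3, none of them among the 8 genes. Same-numbered libraries correlated at 0.158, 0.062 and 0.168 in their deviations from the group means, and unlike-numbered ones at -0.229 to 0.072. PBS 2 correlated best with metformin 1 (0.072). These values do not settle whether the numbers pair the libraries. The labels state no pairing, so the main fit used none. For the related genes, the same settings were chosen after seeing the data, and the sign turned for Bst1 without metformin 3 (-0.31), with a range of -0.31 to 0.83 over the libraries left out. Order by level kept 6 of 7 neighbouring pairs on CPM per kilobase. Depth limits Adora2b and Bst1, with at most 37 reads per library.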
